A study of Mus musculus with 28 samples.

Results

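Genes that mark plasmacytoid dendritic cells were followed across sorted renal dendritic cells of the mouse. The set has 7 members, chosen by name with earlier results of these data known: Siglech, Ccr9, Ly6d, Pacsin1, Tcf4, Spib and Runx2. Member counts and percentiles set beside those of all genes are therefore a description. A member was measured where the array annotation ties a probeset to its symbol alone, and the brightest such probeset would stand for the gene. Of the 7, 6 had 1 probeset each, out of 19272 genes on the array, and Runx2 was not analysed here. RNA was amplified and hybridised on 28 arrays in 8 groups, and levels are log2 array signal, on which 1 unit is a doubling. Kidneys were digested, and cells positive for CD45, CD11c and class II MHC were sorted. Homeostatic groups hold cortex or medulla cells of healthy C57BL/6 or healthy BALB/c mice (n = 4 each). Graft groups hold cells of kidney allografts 3 days after transplantation, split by CD45.2 into donor cells (BALB/c) and by CD45.1 into host cells (C57BL/6), again by cortex and medulla (n = 3 each). Replicates 1, 2 and 3 of the 4 graft groups came from the same 3 grafts, called grafts 1, 2 and 3 here, and cortex and medulla of each healthy replicate came from 1 mouse. The sources used here give neither age nor further treatment of the mice.

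Plasmacytoid dendritic cells are the dendritic cells that release large amounts of type I interferon when endosomal Toll-like receptors meet viral or self nucleic acids. Their identity depends on the transcription factor TCF4 (E2-2), acting with SPIB and RUNX2, and is opposed by ID2, which sequesters E proteins. Mouse plasmacytoid cells carry little CD11c and MHC class II at rest, so a gate on both proteins is aimed mainly at conventional dendritic cells. Siglec-H is a sialic-acid-binding surface receptor, CCR9 a homing receptor for the chemokine CCL25, and PACSIN1 an endocytic adaptor. Ly6D is a surface antigen of lymphoid progenitors, B cells and plasmacytoid cells.

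E proteins such as TCF4 bind E-box sequences, so the promoters of the 2 members that moved most are shown with their CACCTG matches. Each window is the 250 bases before the start site, on the gene's strand in the RefSeq table (GRCm38.p6), where 5 of the 7 members matched. Capitals mark CACCTG or its reverse complement CAGGTG, a form of the general E-box CANNTG.
Siglech: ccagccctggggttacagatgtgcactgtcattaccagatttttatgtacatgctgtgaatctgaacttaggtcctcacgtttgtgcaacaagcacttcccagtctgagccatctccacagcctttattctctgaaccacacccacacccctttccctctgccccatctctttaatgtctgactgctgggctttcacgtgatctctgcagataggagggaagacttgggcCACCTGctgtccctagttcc
Ccr9: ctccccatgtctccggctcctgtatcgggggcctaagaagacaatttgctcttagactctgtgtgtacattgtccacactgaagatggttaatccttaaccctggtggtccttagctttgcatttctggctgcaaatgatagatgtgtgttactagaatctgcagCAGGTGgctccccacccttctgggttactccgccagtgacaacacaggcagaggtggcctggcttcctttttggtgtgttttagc
The Siglech window lies at chr7:55767934-55768183 (plus strand) and its match begins 20 bases before the start site. The Ccr9 window lies at chr9:123766961-123767210 (plus strand) and its match begins 85 bases before the start site. The windows of Pacsin1, Spib and Runx2 hold no CACCTG on either strand. The count of CANNTG is 3 for Siglech, 2 for Ccr9, 2 for Spib, 1 for Runx2 and 0 for Pacsin1. Among 32851 promoter windows of the same length, 17.2% hold CACCTG on either strand and 66.2% hold a CANNTG. A match of letters is a description and not a binding site.

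Transcripts of the sort markers were highest in C57BL/6 kidneys and lowest, by the mean of 5 such genes, in host medulla. Ptprc, which encodes CD45, averaged 12.79 in C57BL/6 cortex, 11.71 in host cortex and 9.67 in host medulla, and Itgax, which encodes CD11c, averaged 11.32, 9.16 and 7.66. A list of 24 leukocyte-wide genes averaged 11.06 ± 0.07 (SD, n = 4) in C57BL/6 cortex, and between 9.15 and 10.91 over the 3 host cortex arrays. The same list lay between 7.94 and 9.05 over the 3 host medulla arrays. In bulk samples, fewer plasmacytoid cells and less RNA per cell cannot be told apart, and the share of other cells was not measured. Ccr9 lay above the 40th percentile of its own array in 6 arrays and Spib in 7 arrays. The other 4 measured members did so in all 28.

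Siglech was highest by mean in host cortex. Its levels in the host cortex arrays were 12.78, 11.01 and 8.19 in grafts 1, 2 and 3. The highest was 4.58 log2 units above the lowest, and only the array of graft 3 lay among the other groups. In C57BL/6 cortex Siglech stood at 7.89, 8.03, 7.95 and 8.01, the tightest of its groups together with donor cortex at 7.82, 7.87 and 7.75. Host medulla of the same 3 grafts read 8.44, 8.38 and 7.88, and donor medulla 7.57, 8.00 and 7.86. The highest level outside host cortex was found in homeostatic BALB/c medulla, at 9.30, 9.01, 8.99 and 9.89, followed by BALB/c cortex at 8.70, 8.47, 8.35 and 9.42. C57BL/6 medulla ranged from 7.87 to 9.24. Host cortex led by mean, and its range overlapped that of BALB/c medulla because of graft 3. Between neighbours in the order of means, ranges failed to overlap only between C57BL/6 cortex and donor cortex.

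Ccr9 followed Siglech in host cortex and differed from it in host medulla. The 3 host cortex arrays read 12.00, 9.77 and 7.12, the host medulla arrays 9.07, 8.91 and 7.13. Graft 3 was the low array in both regions, at the level of healthy kidneys. In the 4 homeostatic groups Ccr9 ran from 6.64 to 7.59, and the group means lay between 7.01 and 7.16. Donor cells were lowest, at 6.46, 6.60 and 6.35 in cortex and 6.47, 6.28 and 6.44 in medulla. No donor array reached any homeostatic array.

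Ly6d varied less. Host cortex read 9.91, 9.86 and 8.98, above the host medulla of the same grafts at 8.75, 8.31 and 8.86 without overlap. Donor cells had the 2 lowest means, 8.40 ± 0.39 in cortex and 8.38 ± 0.29 in medulla (SD, n = 3). The highest Ly6d level of all 28 arrays was in C57BL/6 medulla replicate 4, at 10.08, where the other 3 arrays lay between 8.48 and 8.66. Siglech was also highest of its group in that array, at 9.24.

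Pacsin1 was raised in 1 array more than in a group. Host cortex stood at 9.68, 7.94 and 7.82, and all other 25 arrays lay between 7.40 and 8.30. Its 2 lower host cortex arrays fell within the range of BALB/c cortex, 7.47 to 7.95. In C57BL/6 cortex its 4 arrays lay between 7.43 and 7.54, below all 3 host cortex arrays.

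The transcription factors were less tied to a group. Tcf4, which is also active in B cells and in many non-immune tissues, read 11.48, 10.66 and 9.00 in host cortex and 10.86, 8.60 and 8.12 in host medulla. Graft 1 was highest and graft 3 lowest in both regions. Tcf4 ranged from 9.41 to 10.37 in C57BL/6 cortex and from 8.46 to 10.79 in BALB/c medulla, so all host cortex arrays but that of graft 1 lay within the range of another group. Spib, an Ets-family factor of plasmacytoid and B cells, stood at 8.33, 7.59 and 7.26 in host cortex and at 7.18, 6.84 and 8.21 in host medulla. Its 8 group means lay between 6.82 in donor cortex and 7.73 in host cortex. For Tcf4 and for Spib, the ranges of all neighbouring groups overlapped, as they did for Ly6d and Pacsin1.

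**Figure D1:**
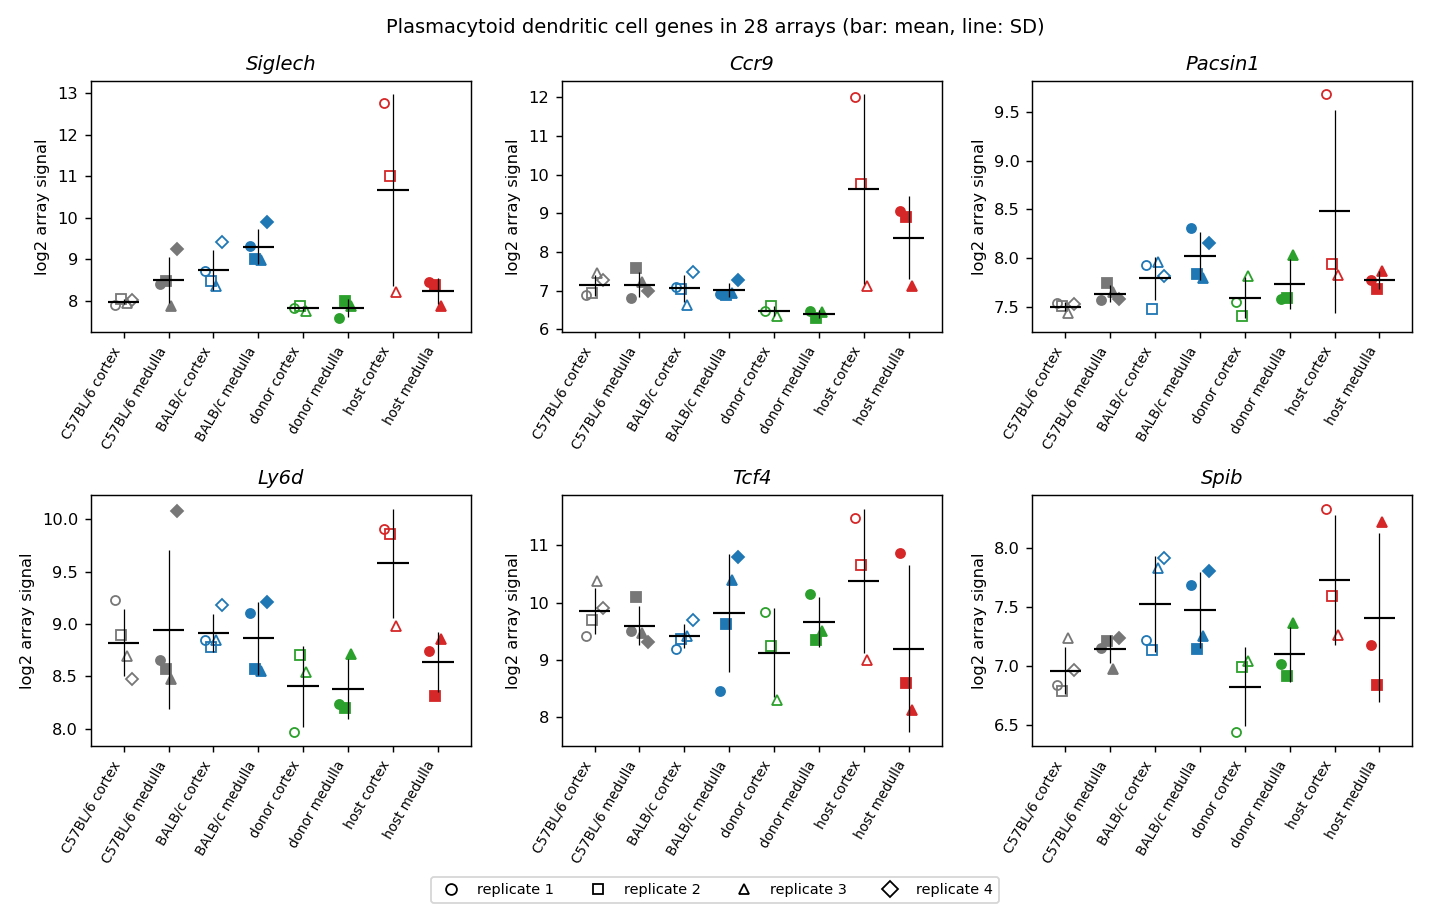
Log2 array signal (vertical axes, which differ between panels) of the 6 measured members in 8 groups (horizontal axes). Points are arrays shaped by replicate, open for cortex and filled for medulla, bars are means and vertical lines SDs. Host cortex replicate 1 is the highest array for Siglech (12.78), Ccr9 (12.00), Pacsin1 (9.68), Tcf4 (11.48) and Spib (8.33), while replicate 3 of host cortex lies near the healthy kidneys for Siglech and Ccr9.

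The spread among the 3 host cortex arrays was large for these genes. The SD was 2.31 for Siglech and 2.45 for Ccr9, at the 99.7th and 99.8th percentile of the SDs of the 14346 genes tested, whose median was 0.26. It was 1.27 for Tcf4 (95.3rd percentile) and 1.04 for Pacsin1 (91.8th), and 0.55 for Spib and 0.52 for Ly6d (74.1st and 72.4th). All 6 members had their highest host cortex value in graft 1 and their lowest in graft 3. The leukocyte-wide mean had the same order, at 10.91, 9.98 and 9.15 in grafts 1, 2 and 3, and proximal tubule markers the opposite, at 11.11, 11.75 and 12.08. Natural killer cell markers stood at 9.07, 8.84 and 7.36, and T cell markers at 7.94, 6.96 and 7.00. B cell markers, which would matter for Ly6d, Spib and Tcf4, stood at 7.04, 6.87 and 6.94. Of 11 B cell markers, 5 were above the 40th percentile in every host cortex array, Cd79b and Pax5 among them. The other 6 were above it in no host cortex array, Ms4a1 and Cd79a among them. Cd79a was above it in no array of any group. The part of these other cells in the spread was not tested. Relative to the leukocyte-wide mean of its own array, Siglech still differed by graft, at 1.87, 1.03 and -0.96 in host cortex, against values from -3.11 to -3.07 in C57BL/6 cortex.

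**Figure D2:**
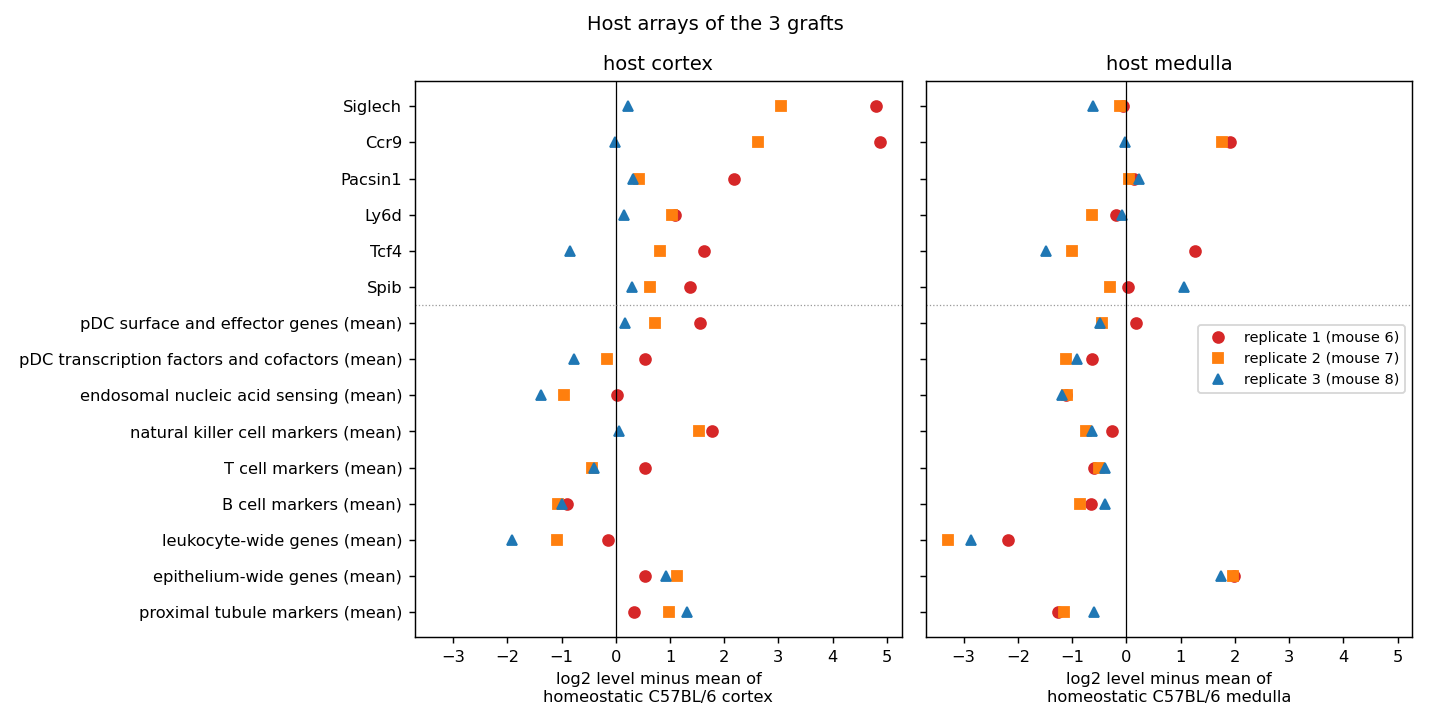
Log2 level of each host array minus the mean of the homeostatic C57BL/6 group of the same region (horizontal axes), for the 6 measured members and the means of 9 gene lists (vertical axis). Points are the 3 grafts. In host cortex the arrays of grafts 1 and 2 lie right of 0 for all 6 members, while the leukocyte-wide mean lies left of 0 in every array of both regions.

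Host cells were compared with homeostatic C57BL/6 cells of the same region, which asks how cells of the recipient strain in the graft differ from resident cells. In the cortex, 3 of 6 members rose and none fell, where 2.01% of all 14346 genes tested rose and 4.14% changed in either direction (limma, adjusted p under 0.05). Siglech was 2.69 ± 0.59 (SE) higher, a 6.46-fold difference (adjusted p = 0.0081). In the main fit, SE and p of every comparison rest on 1 spread per gene, shared by all 8 groups. The SD of Siglech was 2.31 in host cortex and 0.06 in C57BL/6 cortex, so they do not measure the spread between grafts in host cortex. Ccr9 was 2.49 ± 0.64 higher (adjusted p = 0.025), although graft 3 at 7.12 lay inside the C57BL/6 range. Ccr9 was above the 40th percentile in only 1 of the 4 C57BL/6 cortex arrays, so its difference is one of array signal near the low end of the scale and no fold is given. Of the 6 arrays that brought Ccr9 into the test, 4 were host arrays. Pacsin1 was 0.98 ± 0.28 higher, with an adjusted p that rounds to 0.05 and passed. Spib differed by 0.77 ± 0.29 and Ly6d by 0.76 ± 0.32 (adjusted p = 0.16 and 0.25), and Tcf4 by 0.53 ± 0.59 (adjusted p = 0.86). All 6 differences were above 0, with a median of 0.87 against -0.01 over all genes; without host cortex replicate 1, that of Tcf4 was below 0. Each of the 3 calls was lost without at least 1 array. Siglech lost its call without host cortex replicate 2 (2.52, adjusted p = 0.051) and stood at 1.63 (adjusted p = 0.047) without replicate 1 and at 3.93 (adjusted p = 1.1e-06) without replicate 3. Ccr9 fell short without host cortex replicate 1 (1.30, adjusted p = 0.15) or 2 (2.42, adjusted p = 0.099), and without C57BL/6 cortex replicate 1 or 2 (adjusted p = 0.054 and 0.064). Without host cortex replicate 3 it was 3.75. Pacsin1 fell short without host cortex replicate 1 (0.38, adjusted p = 0.27) and without any 1 of the 4 C57BL/6 cortex arrays (adjusted p = 0.077 to 0.11), with mouse as a random block (adjusted p = 0.056), with no filter on dim genes (adjusted p = 0.06) and after a second quantile normalization (0.85, adjusted p = 0.056). Fitted on the 2 groups alone, none of the 3 passed (adjusted p = 0.24, 0.3 and 0.35).

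In the medulla, none of the 6 members differed from homeostatic C57BL/6 medulla by limma, where 11.5% of genes changed, and none had an unadjusted p under 0.05. Ccr9 came closest, at 1.21 ± 0.64 (95% interval -0.11 to 2.53, adjusted p = 0.28), with grafts 1 and 2 above all 4 C57BL/6 arrays. With array weights it passed, where 16.2% of all genes did, so 1 of 6 members is near that background. Siglech differed by -0.26 ± 0.59 (interval -1.49 to 0.96). Leukocyte-wide genes were far lower there: 20 of 24 fell and none rose, with a median difference of -3.16.

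Within the grafts, host medulla was compared with host cortex. Siglech fell by 2.43 ± 0.63, a 5.39-fold difference (adjusted p = 0.026), and the other 5 members did not pass. The background was 2.43% of genes lower and 4.29% changed. All 6 differences were below 0, with a median of -1.07 against 0.10 over all genes. Ly6d was at -0.94 ± 0.34 with no overlap (adjusted p = 0.16), Ccr9 at -1.26 ± 0.68, Tcf4 at -1.19 ± 0.63, Pacsin1 at -0.71 ± 0.30 and Spib at -0.32 ± 0.31. Leukocyte-wide genes moved the same way, with 10 of 24 lower, none higher and a median of -1.43. When each array was centred on its leukocyte-wide mean, the median of all genes moved to 1.66, Siglech stood at -0.87 ± 0.55 (adjusted p = 0.14), and the other 5 members turned above 0. Of these, Pacsin1 (0.86, adjusted p = 0.046) and Spib (1.24, adjusted p = 0.013) passed as higher in host medulla, the opposite direction, where 79.5% of all genes passed. Centring shifts every gene of an array by the same amount, so it cannot change where the members stand relative to that median. The Siglech call was lost without host cortex replicate 1 (-1.37, adjusted p = 0.21) or 2 (-2.25, adjusted p = 0.11) and without host medulla replicate 1, 2 or 3 (adjusted p = 0.053, 0.059 and 0.1). It held without host cortex replicate 3 (-3.66, adjusted p = 7.1e-06). Fitted on these 2 groups alone, no member passed (Siglech, adjusted p = 0.52), nor did any when mouse was added to that fit as a fixed block (Siglech, adjusted p = 0.42).

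The region difference in host cells was then set against that of homeostatic C57BL/6 cells. For Siglech the 2 differed by -2.95 ± 0.84 (adjusted p = 0.12), and none of the 6 members passed, with 3 at an unadjusted p under 0.05 and 0.899% of all genes called by limma. Within healthy kidneys, medulla and cortex differed for no member in C57BL/6 (0.153% of genes called) or BALB/c mice (0.0697% called), nor at an unadjusted p under 0.05. In donor cells no member differed either (2.54% called, 0 members at an unadjusted p under 0.05). The medulla-cortex difference of Siglech was 0.52 ± 0.55 in C57BL/6 mice.

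**Figure D3:**
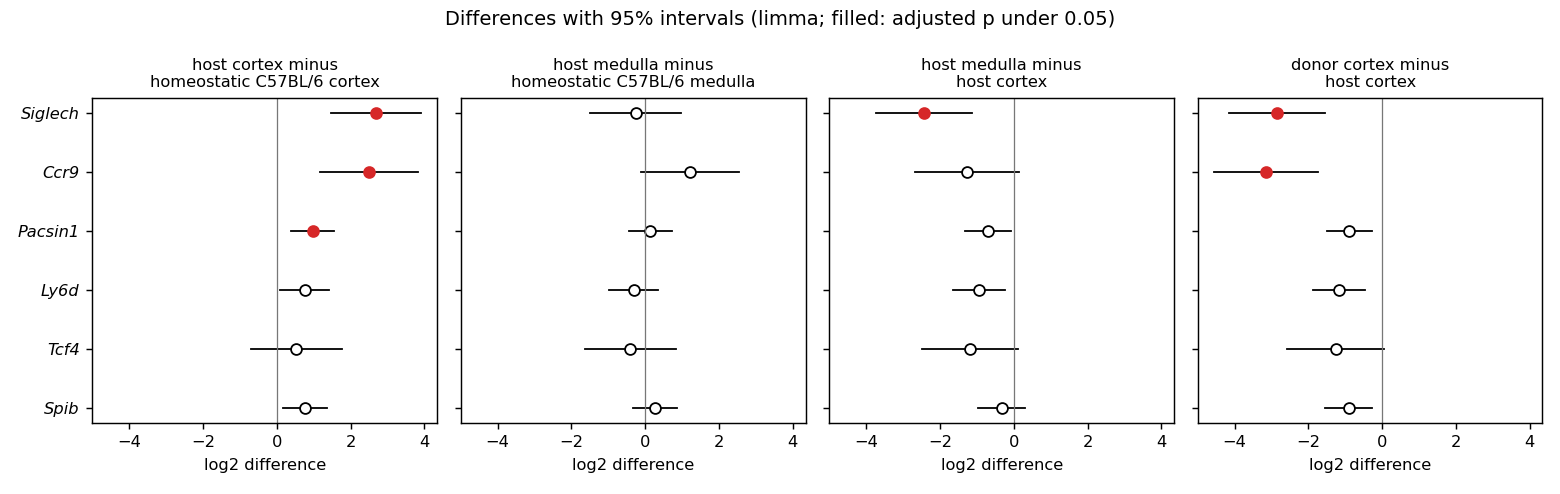
Log2 differences between groups (horizontal axes) with 95% intervals for the 6 measured members (vertical axis) in 4 comparisons, from limma over all 28 arrays. Filled red points passed at an adjusted p under 0.05: Siglech, Ccr9 and Pacsin1 in host against C57BL/6 cortex, Siglech between the host regions, and Siglech and Ccr9 between donor and host cortex.

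Donor and host cells came from the same grafts, and they differed both in strain and in origin, from the donor or from the recipient. The main fit had no term for mouse, so its p-values do not hold the graft constant. In the cortex, Siglech fell by 2.85 ± 0.63 in donor relative to host cells (7.21-fold, adjusted p = 0.039), and Ccr9 fell by 3.16 ± 0.68 (adjusted p = 0.033). Ccr9 was above the 40th percentile in no donor cortex array, so no fold is given for it. Thus 2 of 6 members fell where 0.125% of all genes fell and 0.495% changed. Ccr9 was above the 40th percentile in 6 arrays, 2 of host cortex and 2 of host medulla, so host arrays brought it into the test. With a stricter filter on dim genes, which drops Ccr9, 1 member passed. No donor array reached a host array for Siglech or Ccr9. Ly6d was at -1.18 ± 0.34, Spib at -0.90 ± 0.31 and Pacsin1 at -0.89 ± 0.30, each without overlap and none past the threshold (adjusted p = 0.23 to 0.44). For Pacsin1 the ranges all but touched, at 7.818 in donor cortex replicate 3 and 7.820 in host cortex replicate 3. Host cortex replicate 1 stood at 9.68. Tcf4 was at -1.26 ± 0.63 (adjusted p = 0.96). The leukocyte-wide genes differed little between these groups, with a median of -0.02 and none called. Both calls were lost without any 1 of the 3 donor arrays (adjusted p = 0.076 to 0.12) and without host cortex replicate 1 (-1.79 for Siglech and -1.97 for Ccr9, adjusted p = 0.18 and 0.13) or replicate 2 (-2.67 and -3.09, adjusted p = 0.15 and 0.11). Without host cortex replicate 3 the differences were -4.08 and -4.41 (adjusted p = 3.8e-06 and 1.5e-05). Fitted on these 2 groups alone, neither passed (adjusted p = 1 for both), nor with mouse added to that fit as a fixed block (adjusted p = 0.75 and 0.74). In the medulla no member passed by limma, where 0.592% of genes changed and 1 member had an unadjusted p under 0.05. That member was Ccr9, at -1.97 ± 0.68 (adjusted p = 0.39) with no overlap, and it passed with array weights, where 1.54% of all genes did.

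The strain difference was measured in healthy kidneys, to set beside the donor-host difference. BALB/c and C57BL/6 cells differed for no member in cortex (9.91% of genes called by limma, 1 member at an unadjusted p under 0.05) or medulla (9.11% called, 0 members). Siglech was 0.76 ± 0.55 higher in BALB/c cortex (adjusted p = 0.4), with no overlap between the 2 strains, and 0.80 ± 0.55 higher in BALB/c medulla (adjusted p = 0.31). Donor minus host, less the strain difference, was -3.61 ± 0.84 for Siglech in cortex (adjusted p = 0.043). It was the 1 member of 6 that passed, all 6 values were below 0, and 0.432% of genes were lower and 0.774% changed. Ccr9 stood at -3.08 ± 0.90 (adjusted p = 0.1) and Spib at -1.47 ± 0.41 (adjusted p = 0.083). The Siglech call was lost without 11 of the 14 arrays in turn, with values from -3.74 without BALB/c cortex replicate 3 to -2.56 without host cortex replicate 1 (adjusted p = 0.052 to 0.12). It held without host cortex replicate 3 (-4.85, adjusted p = 1.1e-05), BALB/c cortex replicate 2 or donor cortex replicate 3. In the medulla no member passed (1.14% called, 0 members at an unadjusted p under 0.05).

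Donor cells were also set against homeostatic BALB/c cells, the same strain without a graft. All 6 members lay below 0 in cortex and in medulla, and none passed by limma, where 24% and 3.18% of genes changed and 1 member in each region had an unadjusted p under 0.05. In cortex Spib stood at -0.70 ± 0.29 (adjusted p = 0.078) and Siglech at -0.92 ± 0.59 (adjusted p = 0.25), both without overlap. With leukocyte centring, Siglech alone stayed below 0 in either region. That centring moved the median of all genes to 0.67 in cortex and 0.87 in medulla. Without donor cortex replicate 3, or in medulla without BALB/c replicate 3 or 4 or donor replicate 2, Tcf4 turned above 0. The region difference of donor cells did not differ from that of BALB/c cells for any member (0.453% called), nor did that of BALB/c from C57BL/6 cells (0.0418% called), with 0 members at an unadjusted p under 0.05 in both.

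Other genes of plasmacytoid cells were followed from lists. Of 20 surface and effector genes, 15 were tested, and in host cortex against C57BL/6 cortex 3 rose and none fell, with a median of 0.74, where 2.01% of all genes rose and 2.13% fell. Cox6a2, a mitochondrial subunit that plasmacytoid cells share with muscle, read 10.80, 10.23 and 8.79 in host cortex and was 1.29 ± 0.31 higher (adjusted p = 0.018). Klra17, which encodes the lectin receptor Ly49Q, read 9.65, 8.42 and 5.42 and was 2.45 ± 0.64 higher (adjusted p = 0.027). Both repeat the order of grafts seen for Siglech, and graft 3 matched C57BL/6 cortex for Klra17 (5.38 ± 0.16, SD, n = 4). Klra17 was above the 40th percentile in none of the 4 C57BL/6 cortex arrays and in 5 arrays in all, 2 of them host cortex, so its difference is taken against a dim level. The third, Upb1, an enzyme of pyrimidine breakdown that is also abundant in kidney and liver, ran the other way over the grafts, at 9.01, 9.57 and 10.57. Cox6a2 lost its call without host cortex replicate 1 or 2 or C57BL/6 cortex replicate 2 (adjusted p = 0.11, 0.11 and 0.059). Klra17 lost it without host cortex replicate 1 or 2 (adjusted p = 0.17 and 0.16) or any 1 C57BL/6 array (adjusted p = 0.051 to 0.066), and the count of 3 dropped to 1 without host cortex replicate 1 or C57BL/6 cortex replicate 2.

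Between the host regions, 4 of the 15 fell in medulla and none rose, where 2.43% of all genes fell. The 4 were Bst2, Lair1, Klra17 and Upb1. Bst2, the interferon-inducible antigen recognised by plasmacytoid cell antibodies, read 11.28, 11.29 and 9.51 in host cortex and 9.12, 8.88 and 8.70 in host medulla. It fell by 1.79 ± 0.35 (adjusted p = 0.0028) and passed without any 1 of the 6 arrays. Lair1, an inhibitory collagen receptor that most leukocytes carry, read 12.09, 11.07 and 8.67 against 8.36, 7.82 and 7.40. It fell by 2.75 ± 0.65 (adjusted p = 0.014), and lost its call without host cortex replicate 1 or 2 or host medulla replicate 3 (adjusted p = 0.12, 0.073 and 0.066). Klra17, dim in all 3 host medulla arrays, fell by 2.42 ± 0.68 (adjusted p = 0.044) and, of the 6 arrays, could spare only host cortex replicate 3 (adjusted p = 0.051 to 0.32 without each other array). The count of 4 dropped to 2 without host cortex replicate 1 or host medulla replicate 3, and to 0 with leukocyte centring and in a fit of the 2 groups alone, with or without mouse as a fixed block. In donor against host cortex, Bst2 (-1.74 ± 0.35, adjusted p = 0.023) and Cox6a2 (-1.51 ± 0.34, adjusted p = 0.039) were lower, and neither passed without host cortex replicate 1 (adjusted p = 0.12 and 0.22) or replicate 2 (adjusted p = 0.13 and 0.17). Bst2 also fell short without donor cortex replicate 1 or 3 (adjusted p = 0.086 and 0.059), and Cox6a2 without donor cortex replicate 1 or 2 (adjusted p = 0.079 and 0.21). The count of 2 ran from 0, without donor cortex replicate 1 or host cortex replicate 1, through 1 without donor cortex replicate 2 or 3 or host cortex replicate 2, to 4 without host cortex replicate 3. Bst2 is shared with interferon-stimulated cells of other types. Dntt and Cd209d, chosen after their values were seen, were high in 1 array: Dntt, the terminal transferase of lymphoid progenitors, read 11.11, 7.45 and 6.53 in host cortex, and Cd209d read 9.92, 6.70 and 6.91.

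Of 10 further transcription factors, 1 fell in host cortex against C57BL/6 cortex and none rose, where 2.13% of all genes fell. Spi1, which encodes the myeloid factor PU.1, read 8.24, 7.69 and 8.17 in host cortex against 9.88 ± 0.75 (SD, n = 4) in C57BL/6 cortex, without overlap. It fell by 1.84 ± 0.39 (adjusted p = 0.0064), and with leukocyte centring by 0.80 without passing (adjusted p = 0.15). Under that centring the median of all genes moved to 1.04. Bcl11a, an activator of the plasmacytoid programme upstream of TCF4, read 10.51, 8.69 and 7.65 in host cortex against 8.44 ± 0.26 (SD, n = 4) in C57BL/6 cortex. Irf8 read 12.04, 10.88 and 9.77 there. Neither passed (adjusted p = 0.67 and 0.84), and both kept the order of grafts. Irf7, the factor that drives interferon-alpha transcription, fell by 1.65 ± 0.47 in host medulla against host cortex (adjusted p = 0.046), from 10.09, 9.96 and 8.42 to 7.57, 8.20 and 7.74. Zeb2 fell by 1.54 ± 0.38 (adjusted p = 0.019), and at leukocyte centring stood at 0.022, where the median of all genes moved to 1.66. Zeb2 lost its call without host cortex replicate 1 or 2 (adjusted p = 0.14 and 0.064) and host medulla replicate 2 or 3 (adjusted p = 0.11 and 0.074). Irf7 lost its call without any 1 of the 6 arrays but host cortex replicate 3 (adjusted p = 0.059 to 0.23), and the count of 2 dropped to 0 without host cortex replicate 1 or 2, or host medulla replicate 2 or 3. The count was also 0 with leukocyte centring and in a fit of the 2 groups alone, with or without mouse as a fixed block.

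Antagonists of TCF4 and endosomal sensing genes were followed in the same way. Id2 read 11.38, 11.15 and 11.55 in host cortex, 0.69 ± 0.48 above C57BL/6 cortex without passing (adjusted p = 0.63). Id3, another inhibitor of E proteins, was the 1 of 5 antagonists tested that rose, by 1.65 ± 0.42 (adjusted p = 0.026), where 2.01% of all genes rose. Id3 was above the 40th percentile in 1 of the 4 C57BL/6 cortex arrays. It read 7.60, 10.18 and 9.20 in host cortex, lowest in graft 1, and lost its call without host cortex replicate 2 or 3 (1.05 and 1.54, adjusted p = 0.25 and 0.12) or C57BL/6 cortex replicate 2 or 4 (adjusted p = 0.067 and 0.058). Of 9 genes of endosomal nucleic acid sensing, 2 fell in host cortex against C57BL/6 cortex and none rose, with a median of -0.70, where 2.13% of all genes fell. Tlr9, the DNA sensor of plasmacytoid and B cells, fell by 0.82 ± 0.22 (adjusted p = 0.037), at 8.76, 8.25 and 8.44 against 9.31 ± 0.23 (SD, n = 4). With leukocyte centring its difference turned to 0.23, where the median of all genes moved to 1.04. Tlr9 lost its call without host cortex replicate 2 or 3 (adjusted p = 0.2 and 0.13) and without C57BL/6 cortex replicate 1, 2 or 3 (adjusted p = 0.055, 0.12 and 0.094). The other gene was Unc93b1, which ferries these receptors to endosomes, and the count of 2 dropped to 0 without host cortex replicate 3 or without C57BL/6 cortex replicate 1, 2 or 3.

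Of 6 natural killer genes tested, 2 rose in host cortex against C57BL/6 cortex and none fell, where 2.01% of all genes rose. Gzmb, a granule protease that plasmacytoid cells can also make, read 11.49, 11.25 and 7.96 in host cortex and was 3.29 ± 0.51 higher (adjusted p = 0.00027). Ncr1, the natural killer receptor NKp46, read 8.56, 8.81 and 8.72 there with no fall in graft 3, and was 2.19 ± 0.44 higher (adjusted p = 0.0036). Ncr1 was above the 40th percentile in none of the 4 C57BL/6 cortex arrays and Gzmb in 1, so both differences are taken against dim levels. Of the 4 arrays that brought Ncr1 into the test, 3 were host cortex, the group where it was high. Both passed without any 1 of the 7 arrays. The mean of 9 measured natural killer markers was 7.30 ± 0.25 (SD, n = 4) in C57BL/6 cortex and 7.36 to 9.07 over the host cortex arrays. Of these 9 markers, 6 were above the 40th percentile in every host cortex array, Ncr1, Gzmb and Gzma among them. Eomes alone was above it in no host cortex array, and it was above it in no array of any other group either. The part of natural killer cells in the member differences was not tested.

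Likeness over the arrays was measured by Pearson's r over 28 arrays, which share groups, mice and depth of signal, and is a description. The genes nearest to Siglech were Cox6a2 (r = 0.87), the ribonuclease gene Ang2 (0.85) and Gzmb (0.84). Without the 6 host arrays these were 0.66, 0.50 and 0.43. Ccr9 was nearest to Xkrx, P2ry14 and Cd8b1 (0.84, 0.82 and 0.82), and over the other 22 arrays these were 0.26, 0.32 and 0.77. Pacsin1 was nearest to the calcium channel gene Cacna1e (0.94), Ly6d to Rftn1 (0.81), Tcf4 to Mis12 (0.74) and Spib to Gadd45b (0.81). Siglech was the second nearest gene to Ly6d, at 0.73.

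Among the 15 pairs of members, r ran from 0.16 (Tcf4 with Spib) to 0.81 (Siglech with Pacsin1), with a median of 0.56. Without the host arrays the median was 0.36, and Ccr9 with Pacsin1 moved from 0.69 to 0.02. Siglech with Spib went from 0.64 to 0.70. With the leukocyte-wide mean, r over 28 arrays was 0.18 for Siglech, -0.10 for Ccr9 and 0.35 for Tcf4.

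**Figure D4:**
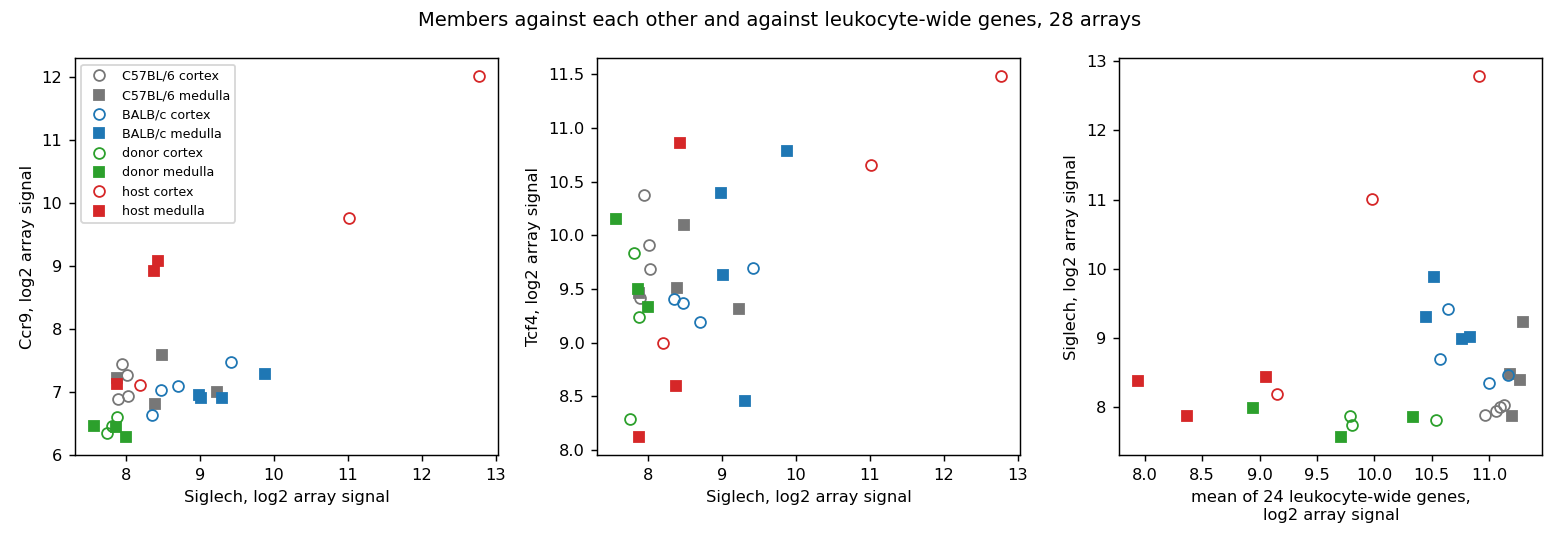
Log2 array signal of Ccr9 and of Tcf4 against Siglech, and of Siglech against the mean of 24 leukocyte-wide genes, in 28 arrays (both axes log2). Points are arrays, open circles cortex and filled squares medulla. Host cortex replicates 1 and 2 stand apart at Siglech levels of 12.78 and 11.01, and the first of them at a leukocyte-wide mean of 10.91 that healthy kidneys share.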

How the data were processed

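The deposited values are log2 array signal, which the authors obtained with RMA (oligo), per the submitters' processing notes, with no version given. RMA includes quantile normalization, so a level is relative to its array. They were used as given. Of 22549 probesets, 20646 with 1 gene symbol were kept, the brightest per gene. The 14346 genes that exceeded the 40th percentile of an array in 3 or more arrays were tested. A limma 3.58.1 model (R 4.3.3) fitted all 28 arrays with a mean for each group, leaving 20 residual degrees of freedom. Tests were 2-sided, adjusted by Benjamini and Hochberg over all genes tested, at 0.05, in 12 comparisons and 5 differences of differences. Precision is limited by how many arrays there are. The labels call replicates biological, and mouse numbers pair regions and donor with host cells; residuals of arrays of 1 mouse correlated at 0.106 (host regions) and 0.22 (donor and host cortex), but at -0.003 in C57BL/6 mice. Mouse as a block was an alternative, besides filters, normalization, centring, array weights and leaving out arrays. The members and lists were chosen with earlier results of these data known, and the alternatives for list genes after first results were seen. Named genes are the members, the 3 most alike genes of each, up to 4 called genes per plasmacytoid list and comparison, the sort markers and 8 set names such as Bst2 and Irf7. Ncr1, Gzma, Eomes, Ms4a1, Cd79a, Cd79b, Pax5, Dntt and Cd209d were named outside this rule. Promoters came from the RefSeq table; motifs were searched on both strands. The script was tested on simulated data.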

Additional observations from a re-analysis of the deposited data

Results flagged for a closer look

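Of 24 sets of 4 homeostatic arrays (6 members in 4 groups), 2 held an array far from the others, where chance flags about 1 in 20. Ccr9 in BALB/c medulla replicate 4 stood at 7.28, with a gap of 0.878 of the group's range. Ly6d in C57BL/6 medulla replicate 4 stood at 10.08, with a gap of 0.887 of the range. The donor-host difference of Siglech in cortex differed from the strain difference by -3.61 ± 0.84 (limma, adjusted p = 0.043), and in 11 of 14 fits that leave out 1 array it did not pass.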

How the results depend on the processing

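Counts are members that passed of 6. With mouse as a fixed replicate block in a fit of the 2 groups alone, 0 passed between the host regions and 0 between donor and host cortex, as without the block in those fits; it could not be fitted for 6 comparisons that share no mice, nor for the 2 differences of differences whose strain part shares none. The random block changed no other count by over 1.5 times. In donor against host cortex, 1 passed with no filter on dim genes, 1 with the strict filter (which drops Ccr9 and Spib) and 0 after a second quantile normalization; in the cortical donor-host difference less the strain difference, 0 passed under the last 2. With only the groups compared in the fit, 0 passed in host medulla against host cortex, host against C57BL/6 cortex, donor against host cortex and the cortical difference of differences. With leukocyte centring the counts were 2 (host regions), 6 (host against C57BL/6 cortex), 6 (the same in medulla), 5 (donor against host medulla) and 6 (the medullary difference of differences), where 79.5%, 49.7%, 96.1%, 67.5% and 70.8% of all genes passed. It also turned differences of list genes above 0: Zeb2 (0.022, host regions), Cbfa2t3 (0.10, donor against BALB/c cortex), Tlr9 (0.23, host against C57BL/6 cortex), and in host against C57BL/6 medulla Klra17 (0.81), Ikzf1 (1.25), Spi1 (0.47), Tlr9 (1.61), Unc93b1 (0.28), Irf5 (1.14) and Pld4 (0.49). In that order of comparisons, the median of all genes moved to 1.66, 0.67, 1.04 and 2.85. With array weights the count was 4 in the cortical difference of differences (14.3% of all genes passed), and 1 in donor against BALB/c cortex (39.4%), host against C57BL/6 medulla (16.2%), donor against host medulla (1.54%) and the host region difference less that of C57BL/6 (2.63%). Leaving out 1 array gave 1 to 3 (host against C57BL/6 cortex), 0 to 2 (host regions, donor against host cortex, the host region difference less that of C57BL/6, the cortical difference of differences) and 0 to 0 in the other 12. The causes were not tested.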
